A study of Mus musculus with 6 samples.

Results

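The genes described here make, carry, read and destroy retinoic acid, the active form of vitamin A. They are the aldehyde dehydrogenase Aldh1a3, the cellular binding proteins Crabp1 and Crabp2, the nuclear receptors Rara, Rarb, Rarg and Rxra, and the cytochrome P450 enzymes Cyp26a1 and Cyp26b1. They were chosen by gene symbol from the deposited gene table, and all 9 were found among its 24067 genes. RNA was taken at embryonic day 13 from the submandibular gland of ICR mice, with 3 control libraries and 3 for blebbistatin, an inhibitor of the non-muscle myosin II motor. No genetic change is named for either group, and for the blebbistatin dose, exposure time and vehicle the sources used here give no value. The series title refers to epithelial buds while the tissue label names the gland, and how many glands went into a library is not stated. Since the labels do not tie the libraries of a group to separate animals or cultures, a p-value here reflects only how far these libraries differ, and that spread may be technical.

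Retinoic acid is made from retinol by retinol dehydrogenases and then by aldehyde dehydrogenases of the ALDH1A group. It enters the nucleus with CRABP proteins and binds heterodimers of a retinoic acid receptor (RAR) and a retinoid X receptor (RXR), which sit on paired DNA half-sites and exchange corepressors for coactivators when ligand is bound. CYP26 enzymes oxidise it for clearance, and in developing salivary glands retinoic acid is known to promote branching and to act on the epithelium through RARs.

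The receptors bind direct repeats of a short half-site, and the RAR targets Rarb and Cyp26a1 are the textbook examples with such a repeat close to the start site. A direct repeat with a spacer of 5 bases (DR5) was searched on both strands, with the hexamer AGGTCA or its variant AGTTCA, or else GGGTCA or its variant GGTTCA, as either half-site, in windows running from 250 bases before to 50 bases after annotated starts (RefSeq, GRCm38.p6, which is mm10). Windows were found for 7 of the 9 genes, 12 windows in all, some of them overlapping. A DR5 stood in 2 of the 12, against 0.0975% of 32817 windows over all genes. The 2 windows belong to Rarb and Cyp26a1, known beforehand to carry such a repeat, so these shares do not test for enrichment. The 250 bases before the start of each of these 2 genes are shown here 5′ to 3′ on the gene's strand, with the DR5 in capitals, because they carry the sequence that RAR and RXR can read. The Rarb stretch is chr14:16575477-16575726 on the minus strand and the Cyp26a1 stretch is chr19:37697558-37697807 on the plus strand.
Rarb: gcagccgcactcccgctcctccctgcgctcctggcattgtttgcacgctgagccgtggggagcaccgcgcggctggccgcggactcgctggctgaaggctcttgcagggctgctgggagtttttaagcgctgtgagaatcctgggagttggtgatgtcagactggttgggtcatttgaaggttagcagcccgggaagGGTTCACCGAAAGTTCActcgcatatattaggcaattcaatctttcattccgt
Cyp26a1: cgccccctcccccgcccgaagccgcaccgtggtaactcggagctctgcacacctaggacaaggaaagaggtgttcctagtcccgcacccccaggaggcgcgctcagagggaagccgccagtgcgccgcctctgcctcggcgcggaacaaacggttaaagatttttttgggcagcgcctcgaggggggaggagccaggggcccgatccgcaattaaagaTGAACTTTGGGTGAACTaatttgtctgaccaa
The Rarb repeat reads from base -53 to base -37 relative to the first transcribed base on the gene's own strand. That of Cyp26a1 lies from -32 to -16 and reads on the opposite strand. DR1 and DR2 are the same repeats with spacers of 1 or 2 bases, found in 0.222% and 0.268% of windows. No DR5, DR1 or DR2 was in the other windows of the 7 genes. Aldh1a3 and Crabp2 had no window and were not searched. Some starts of the deposited annotation also had no window of their own. These were base 98960471 for Rara, 17082331 for Rarb, 27710583 for Rxra and 84593908 for Cyp26b1. A match is a description of these letters and not evidence of binding. The DR5 windows belonged to 31 genes, of which 10 were in the table and 4 had a mean of at least 1 FPKM (Blvrb, Hbb-y, Rarb and Syndig1), and 0 of these 4 passed the test described next.

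Values are FPKM, fragments scaled by transcript length and library total, so that levels can be compared between genes. Genes with a mean of at least 1 FPKM over the 6 libraries were tested as log2(FPKM + 1) with limma, and an adjusted p under 0.05 over all 11540 tested genes was the threshold. Depth, estimated from the value that a single fragment takes in genes with 1 transcript, was 28900000 to 35500000 fragments per library. All 12 epithelial markers reached 1 FPKM in every library, whereas 0 of 7 endothelial and 0 of 8 neuronal markers had a mean of 1 FPKM. Of 13 mesenchymal markers 6 did, with a summed level of 298 to 370 FPKM in controls and 350 to 394 FPKM under blebbistatin, most of it Vim. Those with a mean under 1 FPKM included Fgf10 (0.0522), Twist1 (0.148) and Prrx1 (0.161), beside Epcam at 405 FPKM. How much mesenchyme the libraries held was not tested. Control replicate 1 held the highest value of 10 of the 13, for example 3.06 FPKM of Col1a1 against 0.588 to 1.02 FPKM in the other libraries. Of 8 glial and neural crest markers 3 had a mean of at least 1 FPKM (Erbb3, Ngfr and Sox10, the last also on the epithelial and end bud lists). Of 6 leukocyte markers 1 did (Cd68). End bud markers summed to 781 to 835 FPKM in controls and 527 to 647 FPKM in treated libraries. Of the 7 with a mean of at least 1 FPKM, 0 passed the threshold (smallest limma adjusted p = 0.121). A lower mean under blebbistatin was found for 5175 of all 11540 tested genes and for 6 of these 7 markers. The other 1, Fgfr2, was at 35.1 to 38.7 FPKM in controls and 40.5 to 47.5 FPKM in treated libraries.

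With treatment as the only term, no tested gene of the retinoic acid set differed between the groups by more than the spread between libraries. Of the 9 genes 7 had a mean of at least 1 FPKM, and 0 of these 7 passed the threshold, which 0.078% of all tested genes did. The groups overlapped in all 7, whereas they did not overlap for 14.3% of tested genes. None of the 7 had an unadjusted p under 0.05 in this fit, which 9.36% of tested genes had. Counts that stay at 0 do not show that the levels are equal, and the intervals given with each gene state what the 3 libraries per group can bound. In order of mean level over the 6 libraries the genes were Crabp2 (57.6 FPKM), Rarg (46.5), Rxra (38.0), Rara (23.6), Aldh1a3 (6.39), Crabp1 (1.21), Rarb (1.10), Cyp26b1 (0.0455) and Cyp26a1 (0.0105). Crabp2 exceeded Rarg in 4 of 6 libraries and Crabp1 exceeded Rarb in 3 of 6, so these neighbours could not be ranked. From Rarg to Crabp1 each gene stood above the next in all 6 libraries with no overlap of their ranges, and Rarb stood above Cyp26b1 in the same way. The ranges of Cyp26b1 and Cyp26a1 overlapped.

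**Figure D1:**
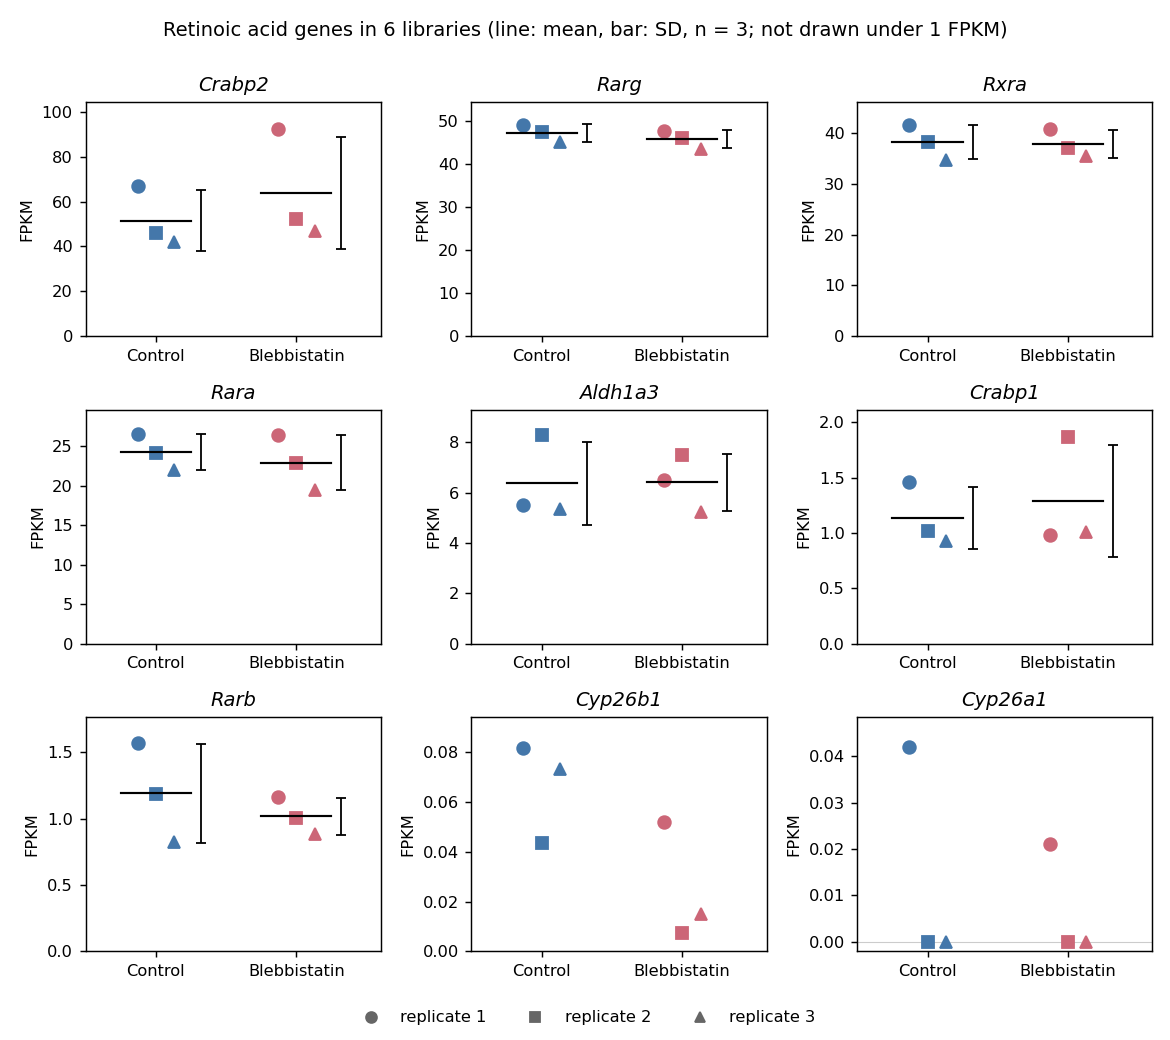
FPKM (y axis, linear, a separate scale for each gene) of the 9 genes in the 3 control libraries (blue) and the 3 blebbistatin libraries (red), with symbols for the replicate number; the line is the mean and the bar the SD, drawn for the 7 genes with a mean of at least 1 FPKM. The groups overlap in every panel, Rarg varies least, and the largest single value is that of Crabp2 in blebbistatin replicate 1 at 92.3 FPKM.

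Aldh1a3 oxidises retinal to retinoic acid and is an epithelial enzyme in many embryonic organs. Aldh1a3 was at 5.50, 8.28 and 5.34 FPKM in control replicates 1 to 3 and at 6.52, 7.50 and 5.22 FPKM in blebbistatin replicates 1 to 3. Replicate 2 was the highest library of both groups and replicate 3 the lowest, so that the spread lay within the groups rather than between them. The means were 6.37 ± 1.66 and 6.42 ± 1.14 FPKM (SD, n = 3), and the log2 fold change was 0.02 ± 0.17 (SE, 95% interval -0.38 to 0.42, limma adjusted p = 0.999). In ratios of FPKM + 1 that interval runs from 0.770 to 1.33. The sign of this difference was negative when control replicate 1 (-0.06), control replicate 3 (-0.08) or blebbistatin replicate 2 (-0.08) was left out. Aldh1a3 lies on chromosome 7 from 66390893 to 66427477 (mm10), and about 487 to 944 fragments stood behind each of its values.

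The binding proteins had very unequal levels. Crabp2, which hands retinoic acid to RARs, was at 66.9, 45.8 and 41.9 FPKM in controls and at 92.3, 52.1 and 46.9 FPKM in treated libraries. Blebbistatin replicate 1 stood apart at the top, control replicate 1 was second, and the 4 other libraries lay between 41.9 and 52.1 FPKM. The means were 51.5 ± 13.5 and 63.8 ± 24.8 FPKM (SD, n = 3), with a log2 fold change of 0.27 ± 0.26 (SE, 95% interval -0.34 to 0.87, limma adjusted p = 0.945). This was the smallest adjusted p of the 7 genes. Without blebbistatin replicate 1 the log2 fold change was -0.03, and without control replicate 1 it was 0.47 (adjusted p = 0.621). About 905 to 1964 fragments lay behind each Crabp2 value, so counting error was small beside the spread between libraries. The interval for counting error alone was 88.3 to 96.5 FPKM in blebbistatin replicate 1 and 49.1 to 55.3 FPKM in blebbistatin replicate 2.

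The summed markers of the duct lineage were highest in blebbistatin replicate 1 and second in control replicate 1, as was Crabp2. Among single markers only Krt7 and Sox2 had this order. For Krt19, Tfcp2l1, Egfr and Muc1 another library was second, and Krt5 was highest in control replicate 1. The lowest sum was in blebbistatin replicate 3, whereas Crabp2 was lowest in control replicate 3. The 7 duct markers summed to 136, 105 and 79.4 FPKM in controls and to 177, 101 and 72.6 FPKM in treated libraries. Blebbistatin replicate 1 held the highest value of 6 of the 7, and 6 of the 7 had a mean of at least 1 FPKM. Krt7, a keratin of simple ductal epithelium, was at 53.1 FPKM there, 51.5 FPKM in control replicate 1 and 17.3 FPKM in blebbistatin replicate 3. Egfr, in contrast, was lowest in control replicate 1, at 3.94 FPKM. The part of the duct markers in the difference of Crabp2 was not tested, and in such bulk libraries fewer cells of a type and less RNA per cell cannot be told apart. The tested genes whose deviations over the 6 libraries were closest to those of Crabp2, out of 8792 with a mean of at least 5 FPKM, were Wfdc2, Nfil3 and Batf, the latter pair being bZIP transcription factors. The root mean square difference in log2 was 0.077 for Wfdc2, 0.0788 for Nfil3 and 0.0987 for Batf, where Crabp2 itself deviated by 0.386. Wfdc2, a secreted whey acidic protein family member, was at 187 FPKM in blebbistatin replicate 1 and between 96.6 and 142 FPKM in the other 5 libraries. These genes share libraries and depth with Crabp2, and the likeness is a description only.

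Crabp1, the paralog linked to sequestering and clearing retinoic acid, was far lower. It was at 1.46, 1.02 and 0.927 FPKM in controls and at 0.985, 1.87 and 1.01 FPKM in treated libraries. Blebbistatin replicate 2 and control replicate 1 were the highest, and the other 4 libraries lay within 0.927 to 1.02 FPKM. Only about 17 to 34 fragments stood behind each value, and the counting interval of the highest library, 1.30 to 2.61 FPKM, overlapped those of the others. The log2 fold change was 0.09 ± 0.18 (SE, 95% interval -0.32 to 0.49, limma adjusted p = 0.991), and it was -0.09 without blebbistatin replicate 2. Crabp2 exceeded Crabp1 by 44.8 to 45.9 times in the 3 controls and by 93.7, 27.9 and 46.4 times in blebbistatin replicates 1 to 3. The spread of this ratio in treated libraries came from the high Crabp2 value of replicate 1 and the high Crabp1 value of replicate 2. Crabp2 lies on chromosome 3 from 87948693 to 87953372 and Crabp1 on chromosome 9 from 54764748 to 54773110.

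Rarg, the RAR known for its role in stratified and glandular epithelia, was the leading RAR. It was at 49.1, 47.3 and 45.1 FPKM in controls and at 47.7, 46.1 and 43.5 FPKM in treated libraries. All 6 values lay within 43.5 to 49.1 FPKM, and the coefficient of variation over the 6 libraries was 4.28%, the smallest of the 9 genes. The means were 47.2 ± 2.01 and 45.8 ± 2.08 FPKM (SD, n = 3). The log2 fold change of -0.04 ± 0.08 (SE, limma adjusted p = 0.991) had a 95% interval of -0.24 to 0.15, or 0.849 to 1.11 in ratios of FPKM + 1. Leaving out any 1 library kept it between -0.07 and -0.01.

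Rara, the most broadly expressed RAR of the body, came next among the RARs. It was at 26.6, 24.2 and 22.1 FPKM in controls and at 26.5, 23.0 and 19.5 FPKM in treated libraries, with replicate 1 the highest of each group. The log2 fold change was -0.08 ± 0.13 (SE, 95% interval -0.37 to 0.20, limma adjusted p = 0.984). It turned to 0.02 without blebbistatin replicate 3, the lowest library.

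Rarb, itself a known direct target of retinoic acid through the repeat shown above, was the scarcest RAR. It was at 1.57, 1.19 and 0.823 FPKM in controls and at 1.16, 1.01 and 0.885 FPKM in treated libraries. Both the highest and the lowest library were controls, and the treated values lay between them. About 71 to 133 fragments stood behind each value. The log2 fold change was -0.11 ± 0.15 (SE, 95% interval -0.45 to 0.23, limma adjusted p = 0.982), and without control replicate 1 it was 0.01. Control replicate 1 is the library with the highest value of 10 of 13 mesenchymal markers, and their part in the Rarb level was not tested. The 3 genes closest to Rarb in their deviations were 1110007C09Rik, Mrpl44 and Glb1, with root mean square differences in log2 of 0.0279, 0.0356 and 0.038 where Rarb deviated by 0.163.

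Summed over the 3 RAR genes, controls held 68.0 to 77.3 FPKM and treated libraries 63.9 to 75.3 FPKM. Rarg made up 63.5% to 66.4% of that sum in controls and 63.3% to 68.2% in treated libraries. Rara made up 32.4% to 34.4% in controls and 30.5% to 35.2% in treated libraries. Rarb supplied 1.21% to 2.03% and 1.39% to 1.54%. The proportions of the 3 receptors thus overlapped between the groups. On mm10, Rarg lies on chromosome 15 from 102234938 to 102257522, Rara on chromosome 11 from 98937696 to 98974942 and Rarb on chromosome 14 from 16430840 to 17082331. In the deposited annotation the exons of the 9 genes overlap those of 0 other genes.

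Rxra, a partner for which RARs, the vitamin D receptor and others compete, was at 41.6, 38.3 and 34.8 FPKM in controls. In treated libraries it was at 40.8, 37.2 and 35.6 FPKM, so that all 3 treated values lay inside the range of the controls. The log2 fold change was -0.01 ± 0.10 (SE, 95% interval -0.24 to 0.22, limma adjusted p = 0.999), and 91.4% of all tested genes had a larger absolute log2 fold change. Rxra supplied 47.5% to 52.4% of the summed FPKM of the 3 RXR genes in controls and 49.8% to 51.6% in treated libraries. Nearly all of the rest was Rxrb (34.6 to 40.4 FPKM in the 6 libraries, log2 fold change -0.05 ± 0.09, SE). Rxrg, the RXR of muscle and brain, lay between 0.023 and 0.152 FPKM. Rxra lies on chromosome 2 from 27677201 to 27763319.

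**Figure D2:**
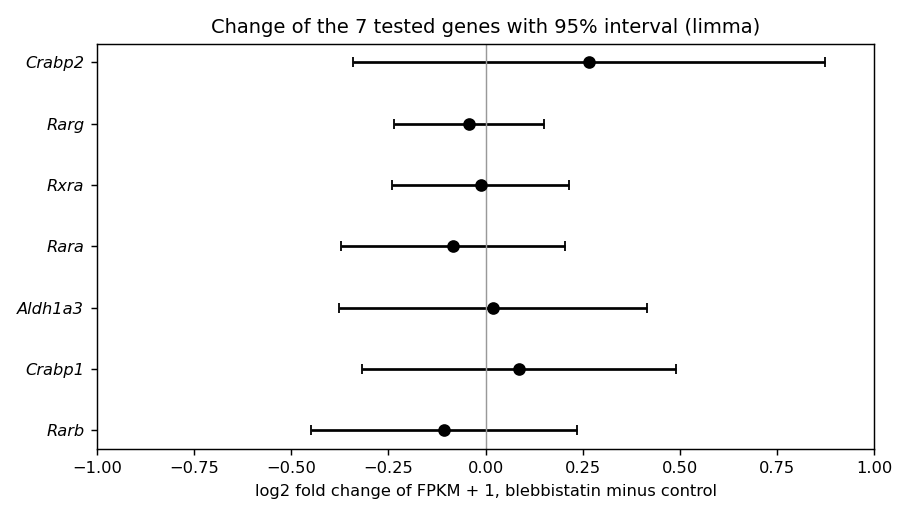
Log2 fold change of FPKM + 1, blebbistatin minus control (x axis), for the 7 tested genes, with the point as the limma estimate from 3 libraries per group and the bar as its 95% interval. Every bar spans 0, and the bars are narrowest for Rarg (-0.24 to 0.15) and Rxra (-0.24 to 0.22) and widest for Crabp2 (-0.34 to 0.87).

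The breakdown enzymes were at the edge of detection in both groups. Cyp26b1, a retinoic acid hydroxylase that guards tissues such as limb bud and gonad, was at 0.0818, 0.0435 and 0.0733 FPKM in controls and at 0.0521, 0.0074 and 0.0152 FPKM in treated libraries. Blebbistatin replicates 2 and 3 were the lowest, while blebbistatin replicate 1 lay above control replicate 2. These values correspond to about 11, 7 and 10 fragments in controls and 7, 1 and 2 in treated libraries. The counting interval of each treated library overlapped that of each control. Those of blebbistatin replicate 2 (0.000187 to 0.0412 FPKM) and control replicate 1 (0.0408 to 0.146 FPKM) only just met. The part of counting error in the difference was not tested. With no filter on low values the limma p of Cyp26b1 was 0.0516 unadjusted and 0.586 adjusted. Cyp26a1, the hydroxylase most readily induced by retinoic acid and the second gene with a DR5, was at 0.042 FPKM in control replicate 1 and 0.0211 FPKM in blebbistatin replicate 1. These are about 2 fragments and 1 fragment, and the gene was listed at 0 in the other 4 libraries. Neither enzyme entered the main test, since their means were under 1 FPKM. The groups overlapped for both, whereas they did not overlap for 10.4% of the 6868 genes with a mean above 0 and under 1 FPKM. Cyp26c1, the third member of the family, was listed at 0 in all 6 libraries. Cyp26b1 lies on chromosome 6 from 84571414 to 84593908 and Cyp26a1 on chromosome 19 from 37697808 to 37701536.

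Rara, Rarg and Rxra use more than 1 start site at levels that can be followed, and the use of each start overlapped between the groups. The share of a transcript is its percentage of the summed FPKM of its gene, and limma was run on the arcsine square root of shares. For Rara the transcript NM_009024, which starts at base 98937696 of chromosome 11, held 79.3%, 78.7% and 75.4% in controls and 75.6%, 78.3% and 72.4% in treated libraries. The shorter NM_001176528, which starts at base 98960471, held 20.5% to 23.5% in controls and 20.6% to 26.2% in treated libraries. The share of the first was lowest in replicate 3 of each group, and the unadjusted p of its difference was 0.381 (limma).

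For Rarg the transcript NM_011244, which starts at base 102257522 of chromosome 15, held 85.8%, 85.9% and 85.0% in controls and 81.5%, 83.5% and 86.6% in treated libraries. The controls lay within 1 percentage point of each other, and the treated libraries lay on both sides of them. The transcript NM_001042727, with an internal start at base 102246500, held the rest. Its level was 6.80 ± 0.15 FPKM in controls and 7.41 ± 1.50 FPKM in treated libraries (SD, n = 3).

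For Rxra the transcript NM_001290481, which starts at base 27709292 of chromosome 2, held 64.8%, 63.7% and 71.8% in controls and 61.3%, 67.5% and 75.3% in treated libraries. The upstream start of NM_011305 at base 27677201 gave 34.6%, 36.3% and 28.2% in controls and 38.7%, 31.9% and 24.0% in treated libraries. Replicate 3 of each group had the lowest share of the upstream start, and the unadjusted p of the difference was 0.729 (limma). Of the 6 shares tested for these 3 genes 0 passed an adjusted p of 0.05, as did 0% of 4997 shares over all genes. At an unadjusted p under 0.05 there were 233 of these 4997, which is 4.66%, and none of the 6. Of the 20 annotated transcripts of the 9 genes, 9 had a mean of at least 1 FPKM. None of the 9 passed when tested by level, which 0.00692% of 14460 transcripts did. Cufflinks divides fragments between transcripts that share most exons, so the shares carry an estimation error that is not in the SD.

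Rarb fragments were mostly assigned to the transcript that begins just after the repeat shown above, NM_011243, with its start at base 16575476 of chromosome 14. It held 98.1%, 98.6% and 76.9% of Rarb in controls and 86.8%, 58.4% and 94.5% in treated libraries. The remainder went largely to NM_001289762, which shares that start, and to NM_001289761, which begins far upstream. At about 1 FPKM the gene was below the minimum for a test of shares.

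**Figure D3:**
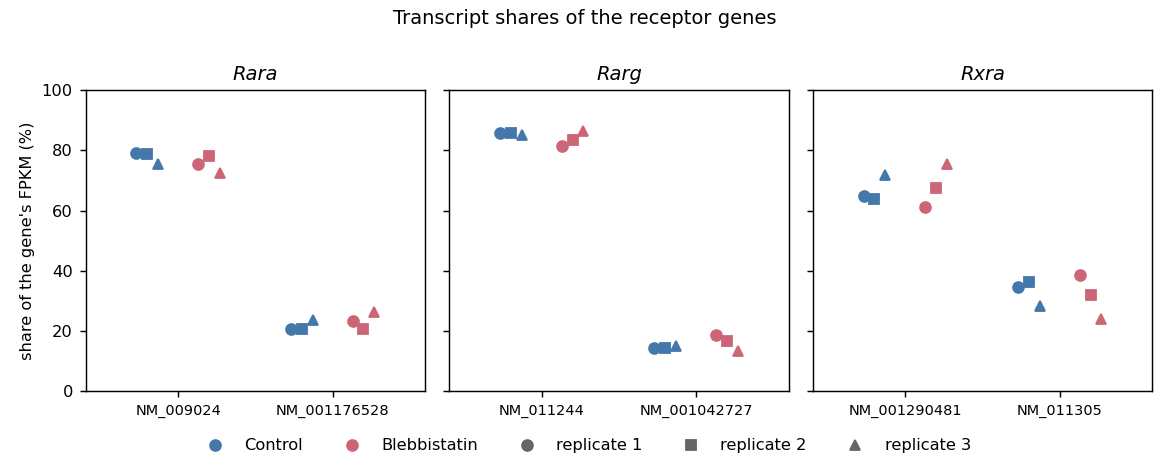
Percentage of the gene's FPKM held by each transcript (y axis) for the 6 tested transcripts of Rara, Rarg and Rxra, in 3 control libraries (blue) and 3 blebbistatin libraries (red), with symbols for the replicate number. The groups overlap for each transcript, and the Rxra shares spread most, from 61.3% to 75.3% for NM_001290481.

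Other genes of retinoid supply had scattered differences, and none passed the threshold. Of 26 genes for uptake, storage and oxidation of retinol that the table holds, 11 were tested, 6 with higher and 5 with lower means. Their median log2 fold change was 0.13, beside 0.01 over all tested genes. The groups did not overlap for 3 of the 11 (27.3%), beside 14.3% of all tested genes. Aldh1a7, a rodent paralog of Aldh1a1, was at 60.1, 67.0 and 60.6 FPKM in controls and at 126, 91.4 and 74.6 FPKM in treated libraries (log2 fold change 0.60 ± 0.17, SE, limma adjusted p = 0.259). Aldh1a1, which oxidises retinal, was at 4.89, 5.05 and 5.55 FPKM in controls and at 9.30, 6.12 and 6.51 FPKM in treated libraries (0.41 ± 0.14, adjusted p = 0.357). In both genes the treated libraries lay above all controls and blebbistatin replicate 1 was the highest, and reads shared by these similar paralogs make their separate values uncertain. Retsat, a retinol saturase, lay below the controls in all 3 treated libraries, at 5.36 to 6.20 FPKM against 6.72 to 9.83 FPKM (-0.34 ± 0.14, adjusted p = 0.480). Rdh11, a retinal reductase, differed by 0.25 ± 0.12 (adjusted p = 0.598). Rdh10, the retinol dehydrogenase required for embryonic retinoic acid synthesis, was at 4.56 to 5.17 FPKM in controls and at 4.60 to 6.29 FPKM in treated libraries. Aldh1a2, the main synthetic enzyme of many embryonic mesenchymes, was at 0.645 FPKM in control replicate 1 and between 0.0678 and 0.248 FPKM in the other 5 libraries.

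Of 20 other receptors, binding proteins and RXR partners 9 were tested, 1 with a higher and 8 with a lower mean, and 0 passed. The median of their log2 fold changes was -0.06. The groups did not overlap for 2 of the 9 (22.2%), beside 14.3% of all tested genes. The largest of these differences was in an orphan receptor. Nr4a1, an immediate early orphan receptor that can pair with RXR, was at 34.7, 38.3 and 35.8 FPKM in controls and at 18.2, 28.4 and 25.3 FPKM in treated libraries (log2 fold change -0.60 ± 0.15, SE, limma adjusted p = 0.193). The treated libraries lay below all controls. Nr4a2 (-0.28 ± 0.15) and Ppard (0.17 ± 0.12) overlapped between the groups. Fabp5, which can carry retinoic acid to Ppard, was the most abundant gene of this list at 119 to 156 FPKM.

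Corepressors and coactivators of nuclear receptors showed no gene past the threshold. All 18 listed genes were tested, 12 with higher and 6 with lower means, and their median change was 0.02 on the log2 scale. In none of the 18 did the groups separate without overlap, which they did for 14.3% of all tested genes. Among those of smallest p were the corepressor Nrip1 (0.26 ± 0.15, SE), the corepressor exchange factor Tbl1xr1 (0.13 ± 0.10) and the Mediator subunit Med1 (0.13 ± 0.11).

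Genes known to respond to retinoic acid in other tissues gave 12 tested of 27, 7 with higher and 5 with lower means, and 0 passed. The median log2 fold change of the 12 was 0.04. Meis2, a homeodomain cofactor, was at 55.9 to 61.5 FPKM in controls and at 64.9 to 70.2 FPKM in treated libraries (0.19 ± 0.09, SE, limma adjusted p = 0.555). It was the 1 gene of the 12 whose groups did not overlap, which is 8.33%, beside 14.3% of all tested genes. Krt14, a basal keratin, had a log2 fold change of 0.44 ± 0.22 (adjusted p = 0.613) and the growth inhibitor Btg2 one of 0.39 ± 0.20 (adjusted p = 0.637), and the groups overlapped in both. Nrip1, which is also on the coregulator list, is the fourth by p. Dhrs3, which many tissues raise in response to retinoic acid, had a log2 fold change of -0.13 ± 0.22. Hoxa2, Hoxa3, Hoxa5 and Cdx1 were listed at 0 in all 6 libraries.

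**Figure D4:**
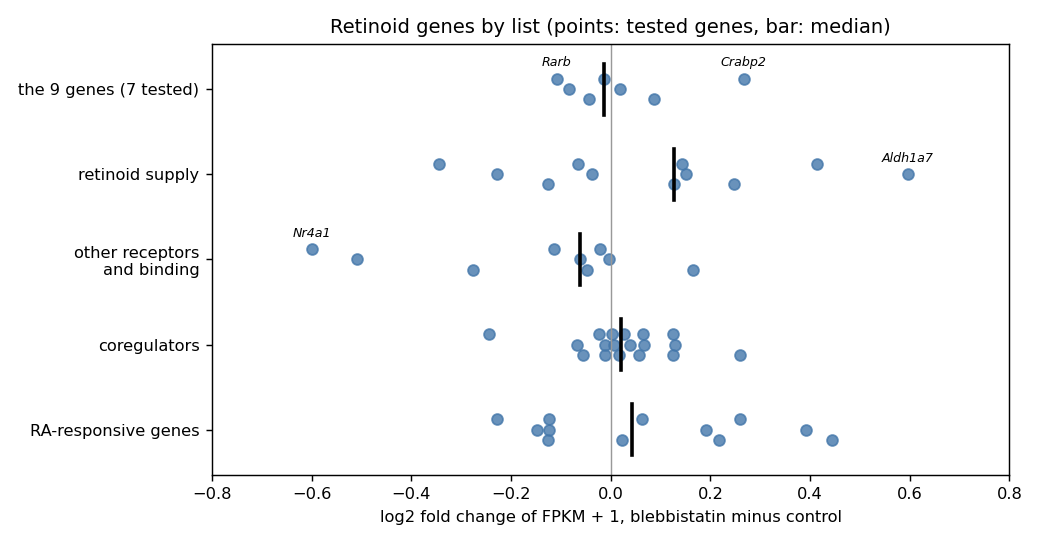
Log2 fold change of FPKM + 1, blebbistatin minus control (x axis), of each tested gene (point) by list, with the median of the list as a bar and 4 genes named. The points of the 9 genes' own row lie between -0.11 (Rarb) and 0.27 (Crabp2), and the widest spreads are in retinoid supply, up to 0.60 (Aldh1a7), and in other receptors, down to -0.60 (Nr4a1).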

How the data were processed

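RNA was profiled in 6 libraries, 3 control and 3 blebbistatin, with groups and replicate numbers from the sample titles. Columns were matched by name: BB was read as blebbistatin, and an unnumbered column as replicate 1. The submitters' processing notes name Cufflinks 2.2.1, Bowtie2 2.2.3, TopHat2 2.0.13 and build mm10. Gene and transcript values were deposited as FPKM per the file headers, and no source used here states whether strand was kept. FPKM are not counts, so limma 3.58.1 in R 4.3.3 was fitted to log2(FPKM + 1) with the treatment as the only term and a mean-variance trend (no trend for shares), after a filter at a mean of 1 FPKM. Adjustment was by Benjamini-Hochberg. Shares were taken for genes whose transcripts summed to a mean of 5 FPKM or more, and for transcripts with a mean share of 0.05 to 0.95. Fold changes understate the change of low genes.

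Fragments behind a value were estimated from the FPKM, the transcript length and the value that 1 fragment takes in genes with 1 transcript of 1500 to 8000 nt. Of low values in such genes, 87.4% to 90.5% per library came out within 0.1 of a whole fragment. Counting intervals are exact Poisson at 95% and cover counting error only. The members and all other gene lists were chosen with earlier results of these data known. Named are all 9 members, the 4 tested genes of smallest p per list, Rdh10, Aldh1a1, Aldh1a2, Rxrb, Rxrg and Cyp26c1, and for the 2 members of smallest p the 3 nearest genes. Other genes (Dhrs3, Fabp5, Hox genes, Cdx1 and single markers) were picked after their values were seen. A few list genes that this rule names are counted but not reported here by name. The fit was tested on simulated data.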

Additional observations from a re-analysis of the deposited data

How the results depend on the processing

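Of the 7 tested genes none passed the threshold under any alternative run. With 3 libraries per group only large changes of Crabp2, Crabp1, Rarb and Aldh1a3 could be bounded, and depth limits Cyp26a1 and Cyp26b1, whose values rest on few fragments. Leaving out 1 library at a time, the log2 fold change ran from -0.188 to 0.0249 for Rara, -0.234 to 0.0131 for Rarb, -0.0745 to -0.00877 for Rarg and -0.0771 to 0.0487 for Rxra. It ran from -0.0848 to 0.197 for Aldh1a3, -0.0883 to 0.192 for Crabp1 and -0.0292 to 0.467 for Crabp2. Array weights turned Rxra to 0.0098. Apart from these, the log2 fold changes kept their sign, and with a minimum of 5 FPKM no value was obtained for Rarb and Crabp1. The number of genes that passed, 9, became 27 when a mean of 5 FPKM was required and 1 when every gene above 0 was kept, 14 after quantile normalization, 2 after median-of-ratios rescaling and 57 with array weights, and without 1 library it ran from 1 to 13 (1 when control replicate 1 was left out, 2 for control replicate 2, 2 for blebbistatin replicate 1 and 4 for blebbistatin replicate 2). It was 12 with a pseudocount of 0.1. The cause was not tested. For transcripts the number, 1, became 9 with no filter and 2 with a minimum of 5 FPKM, and ran from 1 to 11 without 1 library (11 when control replicate 3 was left out). For shares it was 2 with a minimum gene sum of 1 FPKM and ran from 0 to 2 without 1 library. None of these transcripts or shares belonged to the 9 genes.

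With the replicate number as a block 144 genes passed, among them 1 gene of the other retinoid lists and 0 of the 7. Crabp2 had an adjusted p of 0.194 there. The labels state no pairing, and deviations from the group means correlated across 11540 genes with 0.183, 0.0941 and 0.253 for replicates 1, 2 and 3, each library correlating best with its own number, as a hint from the data and not the design.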

Other observations

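Of the 29 other retinoid genes with a mean above 0 and under 1 FPKM, 3 did not overlap between the groups, a share near the 10.4% of all 6868 genes in that range. The 3 are named here after their values were seen. Ttr, which carries thyroxine and the retinol-binding protein, was at 1.03, 0.548 and 0.515 FPKM in controls and at 0.163, 0.195 and 0.0997 FPKM in blebbistatin replicates 1 to 3 (limma adjusted p = 0.258 with no filter on low values). Pdk4, a pyruvate dehydrogenase kinase, was at 0.606, 0.555 and 0.760 FPKM in controls and at 1.06, 1.35 and 1.03 FPKM in treated libraries (adjusted p = 0.254). Rarres1, a retinoid-inducible carboxypeptidase inhibitor family member, was at 0.437, 0.554 and 0.788 FPKM in controls and at 1.15, 1.10 and 0.982 FPKM in treated libraries (adjusted p = 0.284). Stra6, the cell-surface receptor for retinol-binding protein, was at 1.17, 1.08 and 0.656 FPKM in controls and at 0.338, 0.726 and 0.412 FPKM in treated libraries, and its groups overlapped (adjusted p = 0.467).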
